A study of Mus musculus with 7 samples.

Results

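RAB genes encode small GTPases, and the 54 RAB genes measured here were taken by symbol from a table of 22877 rows with 22876 different gene names, as every symbol made of Rab, a number and at most a letter and a further digit. GENCODE M21 names 59 such mouse genes, of which Rab17, Rab19, Rab27b, Rab39 and Rab9b were not analysed here. Oocytes were taken from secondary follicles of C57BL/6J mice aged 8 weeks and their RNA was sequenced, to learn which genes differ when the mitochondrial fusion gene Mfn1 is absent. In the Mfn1-/- group, floxed Mfn1 was deleted by a Cre that the Zp3 promoter drives in growing oocytes, so granulosa cells keep the gene, and WT littermates were the controls. The labels give 4 WT and 3 Mfn1-/- libraries, each made from 5 pooled oocytes, while the series description states 3 per group. Every value below is the authors' mean of normalized counts for a genotype, so no spread between libraries, depth per library or test was available, and a difference between genotypes could not be set against replicate error. Because the oocytes were pooled, fewer oocytes with an mRNA and less mRNA per oocyte cannot be told apart.

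RAB proteins switch between a GTP-bound form on membranes and a GDP-bound form that is extracted into the cytosol, and each marks a membrane compartment and recruits the machinery that moves, tethers and fuses vesicles there. Exchange factors load GTP, GTPase activating proteins end the signal, and a prenyl anchor added by RAB geranylgeranyl transferase holds the protein on the membrane. In mouse oocytes, RAB11A-positive vesicles take part in positioning the spindle, and RAB3A and RAB27A are known for their part in the exocytosis of cortical granules.

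The targeted gene had a mean normalized count of 0.0577 in Mfn1-/- oocytes and 0.616 in WT, a log2 difference of -2.18, with a pseudocount of 0.1 added to both means here and in all log2 differences and folds below. The 10 oocyte markers, among them the egg coat gene Zp3, summed to 3274 in Mfn1-/- oocytes and 2857 in WT. The 12 granulosa cell markers in the table summed to 2.39 and 1.76, and the inhibin gene Inha, at 1.87 and 0.954, held most of that. By gene, 8 of the 12 had a lower mean in Mfn1-/- oocytes and 4, Inha among them, a higher one. All means of the table summed to 142576 in Mfn1-/- oocytes and 130160 in WT, and 6226 genes averaging at least 1 over the libraries had a median log2 difference of 0.16. A RAB log2 difference between 0 and 0.16 therefore lies below the middle of the expressed genes, and each role group is also counted against 0.16. Of those 6226 genes 3113 lay above this shift. Of the 16651 genes with a mean under 1, 5286 lay above it, and their median was 0.01. Counts above the shift are therefore not alike between lists of low and of higher genes. Among genes at the table's lowest value of 0.01 in one genotype, the value in the other genotype was lower for longer genes, so levels behave as values per length, although the sources used here do not name the scale.

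RAB genes were present over a wide range of levels in both genotypes. In Mfn1-/- oocytes 3 members had a mean of at least 10, 20 lay between 1 and 10, 17 between 0.1 and 1, and 14 below 0.1. In WT oocytes the same bands held 1, 19, 17 and 17 members, of which Rab15, Rab26 and Rab42 stood at the lowest value of the table. Most of the family's signal came from a few genes. The highest 8 members held 62.6% of the RAB sum in Mfn1-/- and 62% in WT oocytes, and 6 of the 8 were shared. Rab11a, a recycling endosome RAB, and Rab3d, a secretory granule RAB, were the highest in both genotypes where processed copies are counted apart. Processed copies are intronless genomic copies of an mRNA. With the values of their copies added, Rab7 was at 42.6 in Mfn1-/- and 59.7 in WT oocytes, and Rab11b at 39.6 and 20.7. The copies are shorter than their genes, as Rab11b-ps2 with 654 exon bases beside 6130 for Rab11b. Because levels behave as values per length, such sums do not rank genes by abundance. The order of neighbours could not be set against a spread. The RAB sum was 101 in Mfn1-/- and 85.4 in WT, a ratio of 1.19 beside 1.1 for the whole table, or 0.0712% and 0.0656% of all means.

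**Figure D1:**
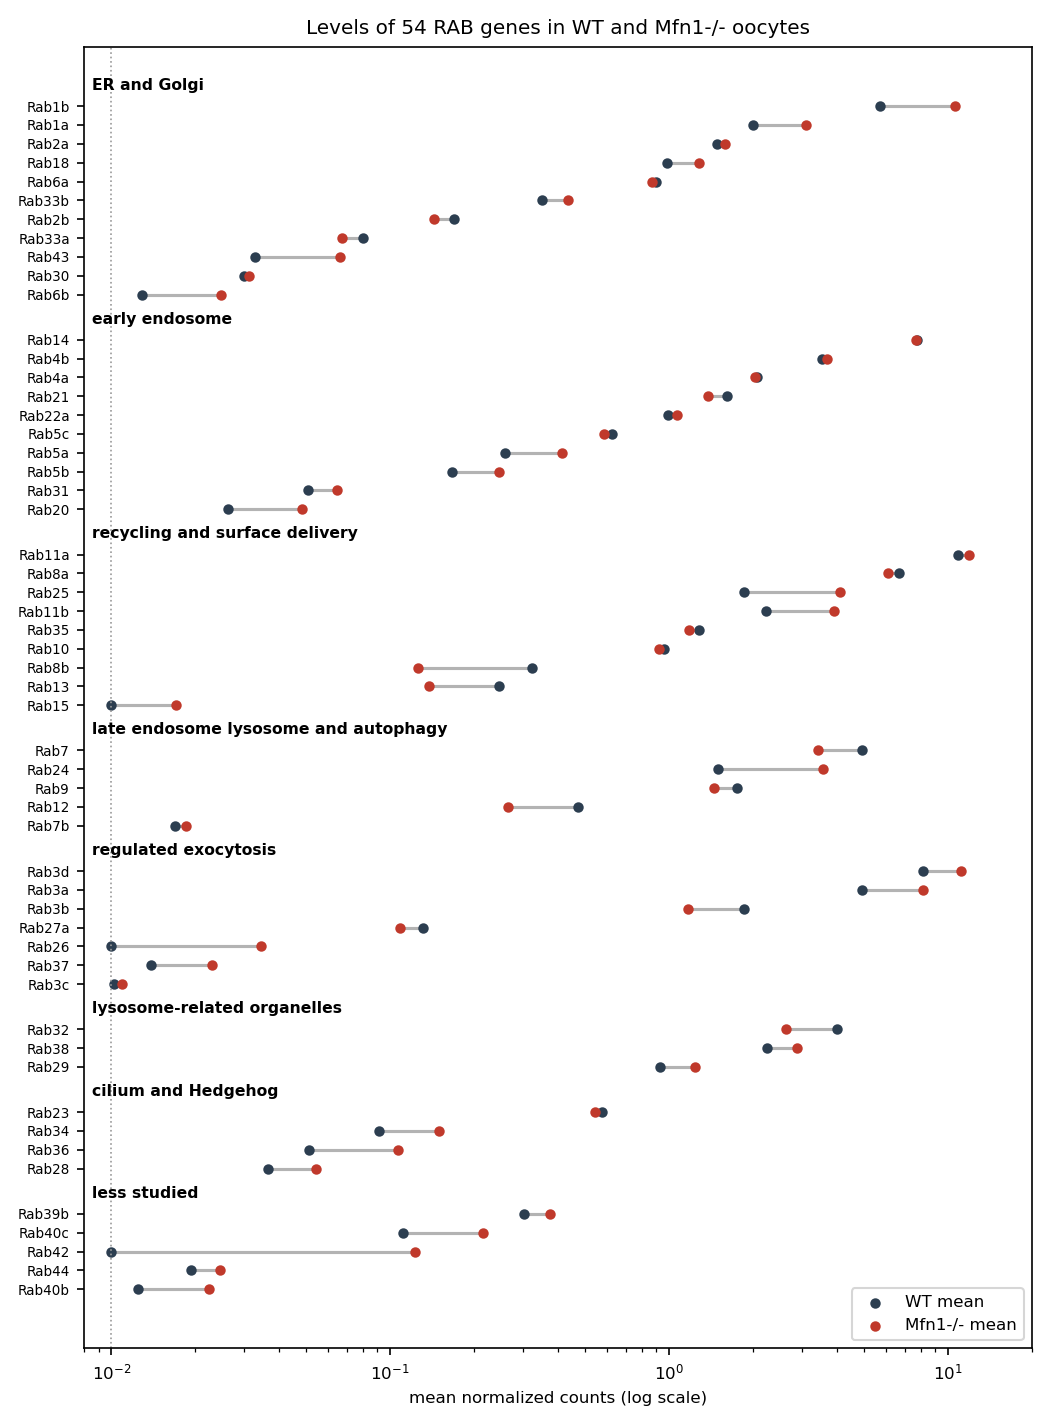
Mean normalized counts (log axis) of the 54 RAB genes in WT (dark) and Mfn1-/- (red) oocytes, ordered by role and by level, with a line joining the genotype means of a gene and a dotted line at the lowest value of the table, 0.01. Rab11a, Rab3d and Rab1b reach 10 or more in Mfn1-/- oocytes, and Rab15, Rab26 and Rab42 stand on the dotted line in WT.

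The mean was higher in Mfn1-/- oocytes for 35 of the 54 members and lower for 19. The members' median log2 difference was 0.11, with quartiles at -0.08 and 0.37, while that of all genes was 0.04. Higher means made up 64.8% of members, 56.7% of all genes and 65.4% of genes with a mean of at least 1. Against the shift of 0.16, 22 members lay above and 32 below, beside 8399 and 14478 of all genes. Of the members with a mean of at least 1, the level at which the shift was taken, 10 lay above and 13 below. Past 2-fold were 3 members, Rab24, Rab25 and Rab42, all higher in Mfn1-/- oocytes, which is 5.56% of the members beside 7.65% of all genes (4.89% higher and 2.76% lower). Of the 23 members with a mean of at least 1, 2 were past 2-fold, or 8.7% beside 8.74% of all genes at that level. Past 1.5-fold were 11 members, 7 higher and 4 lower, or 20.4% beside 19.3% of all genes. At each threshold the share of members was close to the share of all genes, so the counts do not set the family apart.

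**Figure D2:**
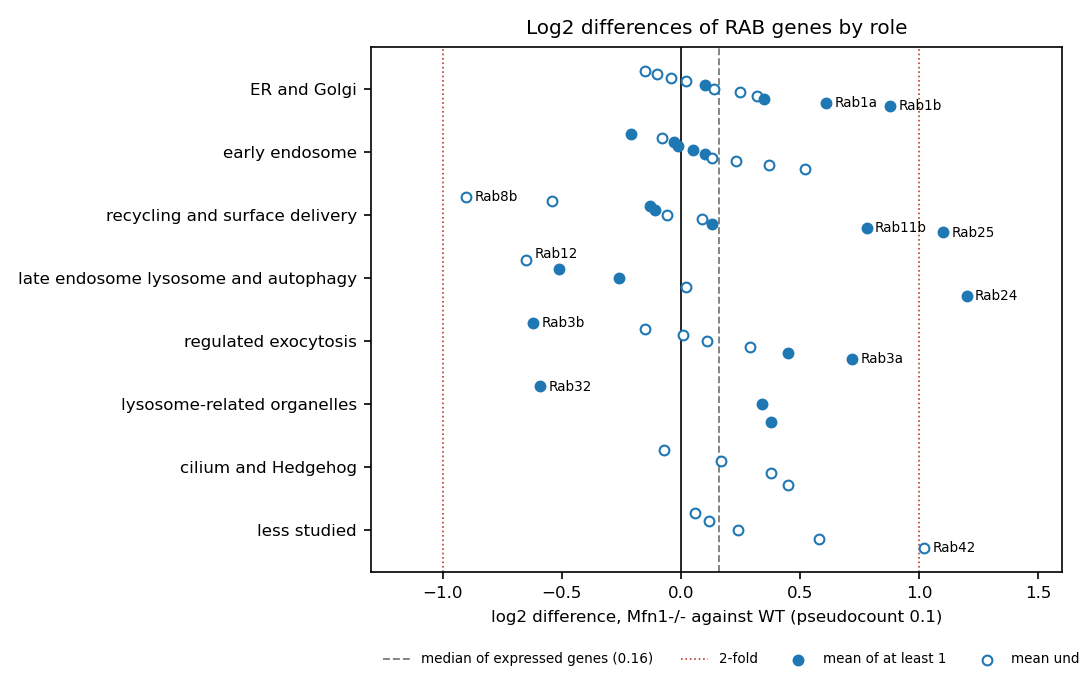
Log2 difference of each RAB gene, Mfn1-/- against WT with a pseudocount of 0.1, by role, with filled points for a mean of at least 1 over the libraries, a dashed line at the median of expressed genes (0.16) and dotted lines at 2-fold. Rab24 and Rab25 lie past 2-fold among the filled points, Rab42 lies past it only among the open points with WT at the lowest value of the table, and Rab8b, Rab12, Rab3b and Rab32 lie farthest to the left.

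Of the 11 RAB genes that act at the endoplasmic reticulum and Golgi, 8 had the higher mean in Mfn1-/- oocytes and 3 in WT, and 5 lay above the shift of 0.16. Their means summed to 18.2 in Mfn1-/- and 11.7 in WT, a ratio of 1.55 that Rab1b and Rab1a, which direct transport from the endoplasmic reticulum to the Golgi, made up almost entirely. Rab1b was at 10.6 in Mfn1-/- and 5.7 in WT oocytes, a log2 difference of 0.88. Rab1a was at 3.1 and 2, a log2 difference of 0.61. The 2 Rab1 genes together were at 13.7 and 7.7, a ratio of 1.78. Rab18, of the endoplasmic reticulum and lipid droplets, was at 1.28 in Mfn1-/- and 0.985 in WT oocytes, a log2 difference of 0.35. Rab2a, of traffic between the same organelles, was at 1.59 and 1.48, a log2 difference of 0.10 that turned negative under both other scalings. Rab6a, of transport within and from the Golgi, was at 0.868 and 0.898. Its close relative Rab6b was barely detected, at 0.0248 and 0.0129, as were Rab33a, Rab43 and Rab30, each below 0.1 in both genotypes. Rab33b, a Golgi RAB that also binds the autophagy machinery, was at 0.435 and 0.349, and Rab2b at 0.143 and 0.169. No member of this group was past 2-fold.

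Among the 10 early endosome RAB genes, 6 had a higher and 4 a lower mean in Mfn1-/- oocytes, 3 lay above the shift, and the sums of 17.2 and 17.1 gave a ratio of 1.01. The most abundant was Rab14, of traffic between the Golgi and endosomes, at 7.69 in Mfn1-/- and 7.76 in WT oocytes, a log2 difference of -0.01. Rab4b was at 3.68 and 3.54, a log2 difference of 0.05 that turned negative under both other scalings and after subtraction of the GC bin median. Rab4a was at 2.03 and 2.07, a log2 difference of -0.03. The Rab4 proteins act in rapid recycling to the surface, and the pair kept nearly the same ratio to each other, 0.552 in Mfn1-/- and 0.585 in WT oocytes. Rab4b shares 65% of its exon bases with Gm21983 on the same strand, so reads from the shared bases cannot be told apart. In all, 20 members share exon bases with another annotated gene, and 8 of them share over 10%, namely Rab20, Rab24, Rab2b, Rab33b, Rab39b, Rab43, Rab4b and Rab6a. Rab21, of early endosomes and integrin traffic, was at 1.38 and 1.61, a log2 difference of -0.21. Rab22a, of early and recycling endosomes, was at 1.07 and 0.991, a log2 difference of 0.10 that turned negative under the same alternatives as that of Rab4b. The 3 Rab5 genes, whose proteins control early endosome fusion, were all below 1. Rab5a was at 0.414 in Mfn1-/- and 0.258 in WT oocytes, Rab5b at 0.246 and 0.167, and Rab5c at 0.586 and 0.626. Rab5c was thus the highest of the Rab5 genes in both genotypes, and the only one of them with a lower mean in Mfn1-/- oocytes. Rab31 and Rab20 were below 0.1 in both genotypes.

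The 9 RAB genes of recycling and delivery to the surface held the highest sum of any role group, 28.4 in Mfn1-/- and 24.5 in WT oocytes, with 4 higher and 5 lower means and 2 members above the shift. Rab11a was at 11.9 and 10.9, a log2 difference of 0.13 that was -0.03 after subtraction of the median of expressed genes. Its paralog Rab11b was at 3.89 in Mfn1-/- and 2.23 in WT oocytes, a log2 difference of 0.78. The ratio of Rab11a to Rab11b was 3.06 in Mfn1-/- and 4.89 in WT oocytes. Rab25, the epithelial member of the same branch (chr3:88542029-88548300, minus strand), was at 4.11 in Mfn1-/- and 1.86 in WT oocytes, 2.15-fold higher, a log2 difference of 1.10. It shares no exon bases with another annotated gene and its transcripts matched no other gene over 75 bases at 95% identity. With both genotypes scaled to the same sum its log2 difference was 0.97, just short of 2-fold. Rab8a, of delivery from the Golgi and recycling endosomes to the surface, was at 6.09 and 6.68, a log2 difference of -0.13. Rab8b, its paralog, was at 0.126 in Mfn1-/- and 0.323 in WT oocytes, a log2 difference of -0.90, the lowest of any member. With processed copies counted apart, Rab8a stood 48.3-fold above Rab8b in Mfn1-/- oocytes and 20.7-fold in WT. With the value of its copy Gm20689 added, Rab8b was at 1.02 and 4.86, a sum of values per length that does not rank the pair by abundance. Rab35, of fast recycling and cytokinesis, was at 1.18 and 1.28, and Rab10, of basolateral and regulated delivery, at 0.919 and 0.959. Rab13, of junctional traffic in epithelia, was at 0.138 and 0.245, a log2 difference of -0.54, and Rab15 was at 0.017 in Mfn1-/- oocytes and listed at 0.01 in WT.

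The 5 RAB genes of late endosomes, lysosomes and autophagy had nearly equal sums, 8.72 in Mfn1-/- and 8.64 in WT oocytes, from members whose differences had opposite signs. Rab24, an atypical RAB tied to autophagy (chr13:55319743-55321946, minus strand), was at 3.57 in Mfn1-/- and 1.5 in WT oocytes, 2.29-fold higher, a log2 difference of 1.20 and the highest of the members. It was the only member still past 2-fold on the higher side when both genotypes were scaled to the same sum (1.07) or the median of expressed genes was subtracted (1.04). Exons of Prelid1, a mitochondrial lipid transfer gene on the opposite strand, cover 62.4% of its exon bases, and Prelid1 was at 16 and 10.8, a log2 difference of 0.56. Reads from the shared bases could not be told apart here, and whether Prelid1 reads were counted for Rab24 was not tested. Rab7, the RAB of late endosome fusion with lysosomes, was at 3.42 in Mfn1-/- and 4.9 in WT oocytes, a log2 difference of -0.51. Rab9, which acts in return from late endosomes to the Golgi, was at 1.45 and 1.75, a log2 difference of -0.26. Rab12, of transferrin receptor degradation and autophagy, was at 0.265 and 0.471, a log2 difference of -0.65. Rab7b was below 0.1 in both genotypes. Of this group, 2 members had a higher mean and 3 a lower one, and only Rab24 lay above the shift.

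RAB genes of regulated exocytosis numbered 7, with 5 higher and 2 lower means in Mfn1-/- oocytes, 3 above the shift and sums of 20.6 and 15. The Rab3 genes, whose proteins sit on secretory vesicles, made up almost all of it, at 20.4 in Mfn1-/- and 14.9 in WT oocytes. Rab3d was at 11.1 and 8.11, a log2 difference of 0.45. Rab3a was at 8.16 and 4.92, a log2 difference of 0.72. In contrast, Rab3b was at 1.17 in Mfn1-/- and 1.85 in WT oocytes, a log2 difference of -0.62. Rab3a and Rab3b thus stood 1.34 log2 units apart, more than any other pair of close paralogs, and the ratio of Rab3a to Rab3b was 6.97 in Mfn1-/- and 2.66 in WT oocytes. Rab3c was nearly at the lowest value in both genotypes (0.0109 and 0.0102). Rab27a was at 0.108 and 0.131, Rab37 was below 0.1 in both genotypes, and Rab26 was at 0.0344 in Mfn1-/- oocytes and listed at 0.01 in WT.

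The 3 RAB genes of lysosome-related organelles such as melanosomes were all expressed, with sums of 6.75 in Mfn1-/- and 7.18 in WT oocytes, 2 higher means and 1 lower, and 2 members above the shift. Rab32, whose protein is also known from mitochondria and their contacts with the endoplasmic reticulum, was at 2.63 in Mfn1-/- and 4 in WT oocytes, a log2 difference of -0.59. Rab38, its closest relative in melanosome biogenesis, was at 2.88 and 2.25, a log2 difference of 0.34. Rab29, a RAB that recruits the kinase LRRK2, was at 1.24 and 0.928, a log2 difference of 0.38. The order of Rab32 and Rab38 was therefore reversed between the genotypes.

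The 4 RAB genes linked to cilia and Hedgehog signalling were below 1, with 3 higher means and 1 lower, and 3 above the shift. Rab23, a negative regulator of Hedgehog signalling, was at 0.544 in Mfn1-/- and 0.576 in WT oocytes. Rab34 was at 0.149 and 0.0912, Rab36 at 0.107 and 0.0513, and Rab28 below 0.1 in both genotypes. The 5 less studied members had 5 higher means, again at low levels, and 3 of them lay above the shift. Rab39b was at 0.373 and 0.301, and Rab40c, of a branch that recruits ubiquitin ligases, at 0.215 and 0.111. Rab42 was at 0.123 in Mfn1-/- oocytes and listed at 0.01 in WT, and its place past 2-fold depends on the pseudocount. Rab44 and Rab40b were below 0.1 in both genotypes. Among all members with a mean under 1, 21 of 31 (67.7%) had a higher mean in Mfn1-/- oocytes, beside 53.5% of all genes at that level.

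Close paralogs, with the same number and different letters, did not all share a direction. The 11 such subfamilies hold 25 members and 18 pairs, of which 10 pairs had log2 differences of opposite sign and 8 of the same sign. Many of these opposite signs rest on differences near 0, as for Rab4a and Rab4b. Pairs of a subfamily also share members. With 35 members higher and 19 lower, unrelated members form pairs of opposite sign too, and their share was not computed, so the count does not set paralogs apart. Both Rab1 genes were higher in Mfn1-/- oocytes, as were Rab11a and Rab11b on the deposited scale, and both Rab8 genes were lower. Summed by subfamily, the ratio of Mfn1-/- to WT ranged from 0.699 for the Rab7 genes to 1.92 for the Rab40 genes, the latter at sums of 0.237 and 0.123.

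Reads of a RAB gene can also come from, or be assigned to, its processed copies, which are intronless genomic copies of its mRNA. A copy that matches a member over at least 250 bases at 95% identity was found in the table for 7 members. Shorter matches, over 75 bases at 95% identity, reached many more genes for some members. Transcripts of Rab33b matched 159 other genes, of Rab34 143, of Rab14 140, of Rab8b 113 and of Rab7 81, while most members matched none. In both genotypes Rab11b-ps2, Rab7-ps1, Gm20689, Gm5865 and Gm13991 stood above their genes, and stretches of the first 3 are shown beside the coding sequences of their genes because they mark how little a 75-base read has to tell gene and copy apart. Sequences are from GENCODE M21 on GRCm38, 5′ to 3′, and capitals mark the positions where gene and copy differ.
Rab11b: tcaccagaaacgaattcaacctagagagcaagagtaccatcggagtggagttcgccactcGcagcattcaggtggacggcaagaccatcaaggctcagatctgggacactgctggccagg
Rab11b-ps2: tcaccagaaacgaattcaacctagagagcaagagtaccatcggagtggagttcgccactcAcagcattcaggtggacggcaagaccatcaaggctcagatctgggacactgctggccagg
Rab7: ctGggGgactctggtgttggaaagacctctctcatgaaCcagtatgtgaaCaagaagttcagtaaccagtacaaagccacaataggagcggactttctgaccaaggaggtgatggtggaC
Rab7-ps1: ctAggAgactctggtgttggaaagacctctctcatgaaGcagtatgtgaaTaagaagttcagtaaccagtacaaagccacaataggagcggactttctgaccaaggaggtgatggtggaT
Rab8b: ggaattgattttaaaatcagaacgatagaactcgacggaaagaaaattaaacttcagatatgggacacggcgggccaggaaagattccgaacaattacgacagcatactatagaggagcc
Gm20689: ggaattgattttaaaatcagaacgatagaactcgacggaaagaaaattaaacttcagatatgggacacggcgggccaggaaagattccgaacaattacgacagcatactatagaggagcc
The stretches are coding bases 92 to 211 of Rab11b, with 1 differing position, 40 to 159 of Rab7, with 5, and 124 to 243 of Rab8b, with 0. For Rab11b the stretch was placed on the only difference, and for Rab7 where differences were densest. The longest identical runs were 502 bases for Rab11b and 325 for Rab7. Over the whole alignment Rab11b and Rab11b-ps2 (chr19:7398424-7399077) differ at 1 of 654 bases. Rab7 and Rab7-ps1 (chr9:54824661-54825282) differ at 10 of 620. Gm20689 (chr3:68900171-68900449) is identical to Rab8b over its whole length of 279 bases.

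The copies followed the direction of their gene in 5 of the 7 pairs. Rab11b-ps2 was at 35.7 in Mfn1-/- and 18.5 in WT oocytes, a log2 difference of 0.94, and stood 9.18-fold above Rab11b in Mfn1-/- and 8.3-fold above it in WT oocytes. Added together, Rab11b and its copy had a log2 difference of 0.93. Rab7-ps1 was at 39.2 and 54.8, a log2 difference of -0.48, and 11.5-fold and 11.2-fold above Rab7. Rab7 and its copy together had a log2 difference of -0.49. For both genes the copy therefore carried most of the signal per length, at nearly the same ratio to its gene in both genotypes. Gm20689 was at 0.897 in Mfn1-/- and 4.54 in WT oocytes, a log2 difference of -2.22, and together with Rab8b it was at 1.02 and 4.86, a log2 difference of -2.14. With a pseudocount of 0.1 the sum for Rab8b was past 2-fold lower and Rab8b alone was not. Rab8b alone was at -1.29 with a pseudocount of 0.01, -1.06 with the median of expressed genes subtracted and -0.98 with the same sum. Gm5865, the copy of Rab2a, was at 13 and 9.43, and the sum of the pair had a log2 difference of 0.42 in place of 0.10. Copies of Rab9, Rab5b and Rab6a were below 1 in both genotypes. Rab9b-ps1 was at 0.109 and 0.313, in the direction of Rab9. Gm13991, at 0.344 and 0.548, and Gm13082, at 0.528 and 0.101, went against Rab5b and Rab6a. How the authors assigned reads that match both a gene and a copy is not given in the sources used here, and the share of such reads was not tested. The 7 copies summed to 89.8 in Mfn1-/- and 88.2 in WT oocytes, and members and copies together to 191 and 174. Because levels behave as values per length, all these sums give a read of a short copy more weight than a read of its longer gene.

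**Figure D3:**
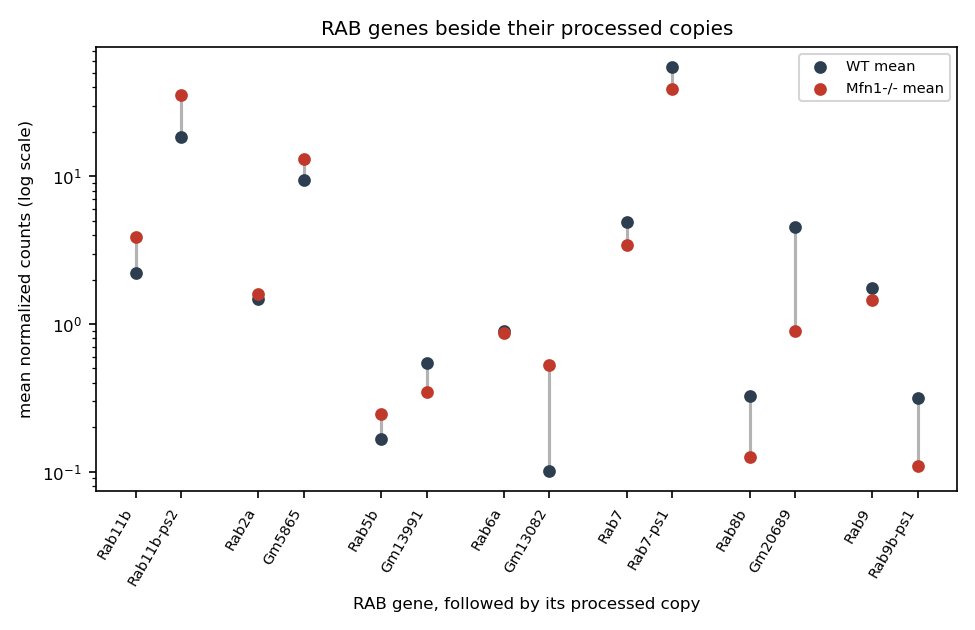
Mean normalized counts (log axis) of 7 RAB genes, each followed by its processed copy, in WT (dark) and Mfn1-/- (red) oocytes, with a line joining the genotype means. Rab11b-ps2 and Rab7-ps1 stand 8.3-fold to 11.5-fold above their genes and differ in the same direction, and Gm20689 is at 4.54 in WT and 0.897 in Mfn1-/- oocytes.

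The log2 differences of RAB genes were higher in transcripts of high GC content, as they were among all expressed genes. With the expressed genes split at their median GC of 49.3%, the 10 expressed members at or above it had a median log2 difference of 0.42 and the 13 below it 0.10. The same medians for all expressed genes were 0.25 and 0.06. Rab24, Rab25 and Rab1b, with transcripts of 55.6%, 55.7% and 58.9% GC, are all on the GC-rich side. After subtraction of the median of genes in the same of 20 GC bins, an alternative chosen after the data were seen, Rab24 had a log2 difference of 0.93, Rab25 of 0.84 and Rab1b of 0.57. No member was then past 2-fold. What part GC content has in these differences was not tested.

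**Figure D4:**
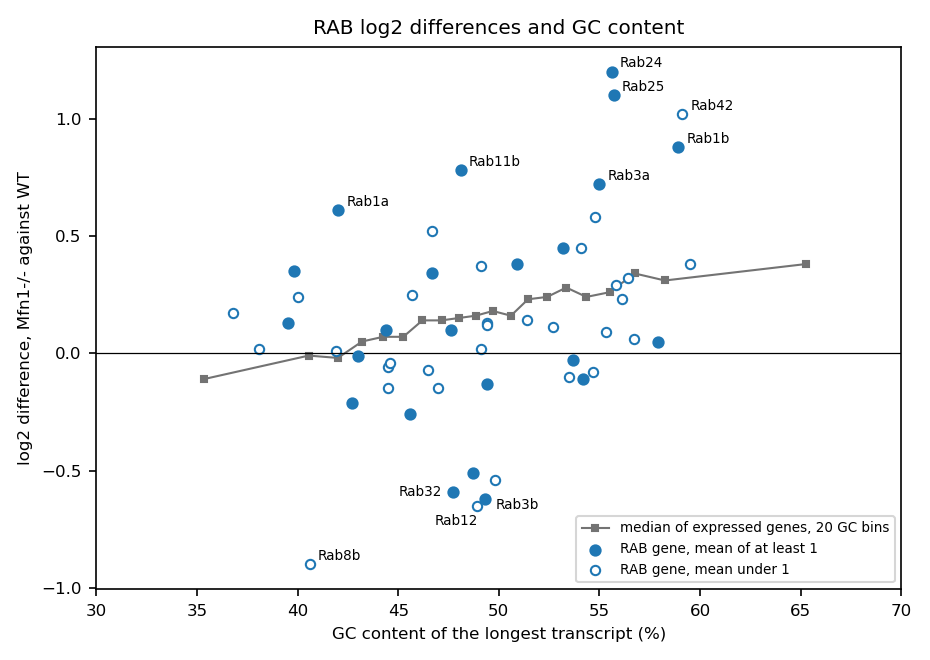
Log2 difference of each RAB gene, Mfn1-/- against WT with a pseudocount of 0.1, over the GC content of its longest transcript in percent, with filled points for a mean of at least 1 over the libraries and a grey line through the medians of expressed genes in 20 GC bins. The grey line runs from -0.11 in the lowest bin to 0.38 in the highest, and Rab24 and Rab25 lie above it at 55.6% and 55.7% GC.

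Promoter windows, from 250 bases before to 50 bases after a transcription start, were available from RefSeq (GRCm38.p6) for 44 members, with 56 windows. Their median GC content was 61.2%, beside 52.7% for all 32851 windows. Both strands were searched for 4 short motifs. The GC box GGGCGG was found in 69.6% of RAB windows and 35.7% of all windows, the CCAAT box CCAAT in 42.9% and 37.4%, and the E-box CACGTG in 10.7% and 7.15%. TGATGNAA, the core bound by ATF4 with its partners, was found in 3.57% and 3.97%. A match of letters is a description only. The windows of the 2 expressed members with the highest and the 2 with the lowest log2 difference are shown, as the genes at both ends of the range, with motif matches in capitals.
Rab24: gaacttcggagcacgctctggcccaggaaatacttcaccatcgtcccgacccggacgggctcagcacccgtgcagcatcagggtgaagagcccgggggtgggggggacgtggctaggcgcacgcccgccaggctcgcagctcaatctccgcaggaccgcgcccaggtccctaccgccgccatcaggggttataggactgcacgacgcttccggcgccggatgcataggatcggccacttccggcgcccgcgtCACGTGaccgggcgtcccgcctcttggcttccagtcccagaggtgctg
Rab25: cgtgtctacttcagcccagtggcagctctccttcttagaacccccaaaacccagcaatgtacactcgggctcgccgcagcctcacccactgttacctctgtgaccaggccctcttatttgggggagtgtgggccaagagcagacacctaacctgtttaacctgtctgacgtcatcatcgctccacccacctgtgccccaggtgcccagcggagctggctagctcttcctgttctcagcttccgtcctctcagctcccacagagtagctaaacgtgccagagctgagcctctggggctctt
Rab3b: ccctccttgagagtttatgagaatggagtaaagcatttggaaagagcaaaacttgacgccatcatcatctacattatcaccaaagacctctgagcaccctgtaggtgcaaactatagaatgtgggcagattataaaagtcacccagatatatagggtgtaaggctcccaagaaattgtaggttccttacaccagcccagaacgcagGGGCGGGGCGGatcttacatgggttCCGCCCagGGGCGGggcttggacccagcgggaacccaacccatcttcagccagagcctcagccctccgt
Rab32: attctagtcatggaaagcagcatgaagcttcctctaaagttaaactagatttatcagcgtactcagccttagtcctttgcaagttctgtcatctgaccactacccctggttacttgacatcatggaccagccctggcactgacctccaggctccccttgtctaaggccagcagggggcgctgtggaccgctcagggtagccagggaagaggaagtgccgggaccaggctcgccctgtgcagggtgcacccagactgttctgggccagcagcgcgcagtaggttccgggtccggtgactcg
The Rab24 window (chr13:55321931-55322230, minus strand) holds 1 CACGTG just after the start site. The Rab3b window (chr4:108878820-108879119, plus strand) holds 4 matches to GGGCGG, of which a pair overlaps. The windows of Rab25 (chr3:88548230-88548529, minus strand) and Rab32 (chr10:10558158-10558457, minus strand) hold none of the 4 motifs, so the pair of higher genes and the pair of lower genes are each split in this respect.

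Genes that act on or with RAB proteins were taken from 4 lists with 116 members in the table. Of these, 63 had the higher mean in Mfn1-/- oocytes and 53 in WT. Above the shift of 0.16 lay 31 of them, beside 8399 of 22877 genes in all. Past 2-fold were 3, all higher, or 2.59% beside 7.65% of all genes, and each had a mean under 1. They were Tbc1d17, a GTPase activating protein, at 0.334 in Mfn1-/- and 0.0732 in WT oocytes, Sytl1, an effector of RAB27, at 0.525 and 0.186, and Rabep2, an effector of early endosome RABs, at 0.248 and 0.0722. None of the 17 with a mean of at least 1 was past 2-fold on the deposited scale, so the expressed genes named next were chosen after their values were seen.

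The 8 genes of membrane attachment and recycling, which serve the whole family, summed to 74.2 in Mfn1-/- and 55.7 in WT, a ratio of 1.33, with 6 higher and 2 lower means and 4 above the shift. Rabac1, a RAB acceptor of the Golgi, made up most of the sum at 57.9 and 40.9, a log2 difference of 0.50. Rabggta and Rabggtb, the subunits of the geranylgeranyl transferase, were at 2.69 and 1.89 and at 3.24 and 2.26, with log2 differences of 0.49 and 0.50. Gdi2, which extracts RABs from membranes, was at 3.75 and 4.63, a log2 difference of -0.30. Rabif, a nucleotide-free RAB chaperone, was at 4.79 and 4.57, a log2 difference of 0.07 that lies below the shift.

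Among 37 exchange factors, 21 had a higher and 16 a lower mean, 11 lay above the shift, and 3 had a mean of at least 1. Mon1a, which with Ccz1 loads GTP on RAB7, was at 2.07 in Mfn1-/- and 3.57 in WT oocytes, a log2 difference of -0.76, in the direction of Rab7. With the GC bin median subtracted, Mon1a was at -1.07 and Rab7 at -0.67. Ccz1 was at 0.706 and 0.692. Dennd6a, an exchange factor of RAB14, was at 2.13 and 3.63, a log2 difference of -0.74, while Rab14 itself was nearly equal in the genotypes. Rab3il1, an exchange factor of RAB3A and RAB8, was at 3.05 and 2.63, a log2 difference of 0.21.

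Of 31 GTPase activating proteins, 22 had a higher and 9 a lower mean in Mfn1-/- oocytes, with 9 above the shift. Tbc1d15, which acts on RAB7, was the highest of them at 6.69 and 7.49, a log2 difference of -0.16, and Tbc1d10b, which acts on several RABs, was at 2.2 and 1.52, a log2 difference of 0.51. Of 40 effectors, 14 (35%) had a higher mean and 26 a lower one, with 7 above the shift and sums of 13.5 and 13.6. Higher means made up 56.7% of all genes, and only 4 genes of each of these lists had a mean of at least 1. The RAB7 effector Rilp was at 1.97 in Mfn1-/- and 1.34 in WT oocytes, a log2 difference of 0.52, against the direction of Rab7. The RAB5 effector Appl1 was at 1.63 and 2.05, a log2 difference of -0.31.

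**Figure D5:**
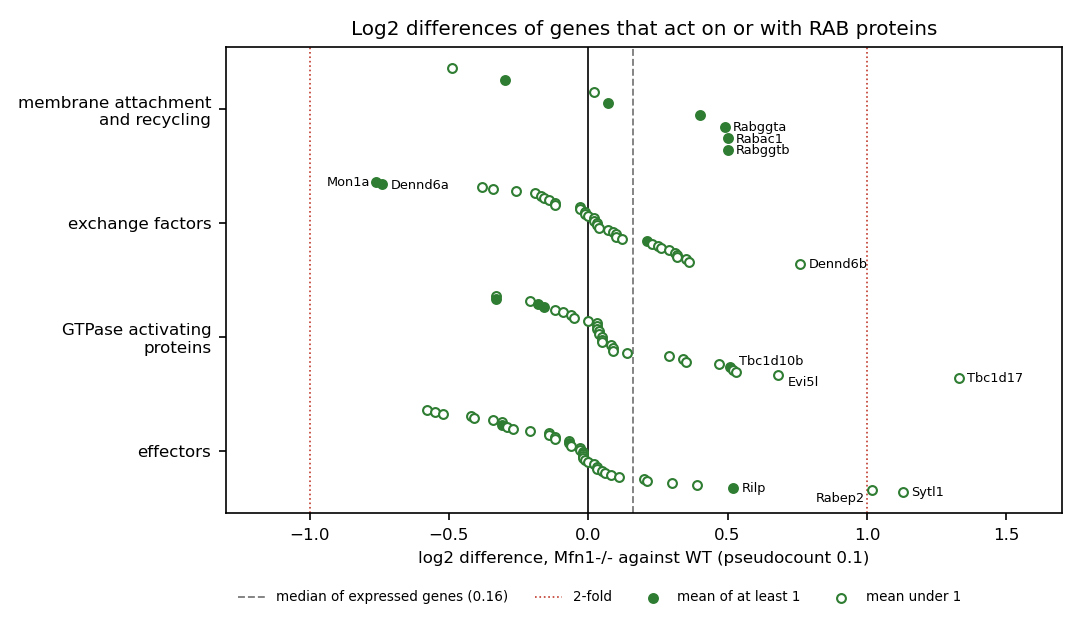
Log2 difference, Mfn1-/- against WT with a pseudocount of 0.1, of 116 genes that act on or with RAB proteins in 4 lists, with filled points for a mean of at least 1 over the libraries, a dashed line at the median of expressed genes (0.16) and dotted lines at 2-fold. Past 2-fold lie Tbc1d17, Sytl1 and Rabep2, all open points, and Mon1a and Dennd6a, at -0.76 and -0.74, lie farthest to the left.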

How the data were processed

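Libraries were made by Smart-Seq2, which amplifies poly(A) RNA, with Nextera XT, and read as 75-base pairs. Reads were trimmed with Cutadapt and aligned with STAR to GRCm38/mm10 by the authors, and DESeq is named among their tools. The deposited table holds 22877 rows with 22876 different gene names, with a signal for each genotype that is the authors' mean of normalized counts, and a signal summed over the 7 libraries. In 100% of rows this sum equals, within 1%, the means weighted by 3 Mfn1-/- and 4 WT libraries. Single libraries have no values of their own in the analysis, so no test, spread or depth is given. The authors' p-value, FDR, ratio and fold change columns hold their own comparison and were not used.

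Log2 differences were computed with a pseudocount of 0.1, and a gene was counted as past 2-fold without a test. A test of library values with limma, foreseen should they be present, could not be fitted. The members, role lists and partner lists were chosen with earlier results of these data known. Named were members with a mean of at least 1 in either genotype, members past 2-fold, pairs of close paralogs, Mfn1, and partner genes past 2-fold with a mean of at least 1, of which there were none. Members and partners named outside this rule were chosen after their values were seen. Alternatives were pseudocounts of 0.01 and 1, a minimum mean of 1, a threshold of 1.5-fold, genotypes scaled to the same sum and the median of expressed genes subtracted. Without a pseudocount, with the GC bin median subtracted and with copies added were chosen after the data were seen.

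Positions, exon overlaps and GC content came from GENCODE M21 and found all 54 members, copies were found with blastn 2.17.0, and promoter windows came from RefSeq. Python 3.11.15, numpy 2.4.6, pandas 2.3.3 and matplotlib 3.10.9 were used. The counting code was checked only by putting known folds, without noise, into the deposited means.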

Additional observations from a re-analysis of the deposited data

How the results depend on the processing

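The count of RAB genes past 2-fold, 3 on the deposited scale with a pseudocount of 0.1, was 5 with a pseudocount of 0.01, 7 with none, 0 with a pseudocount of 1, 1 with both genotypes scaled to the same sum, 0 after subtraction of the GC bin median and 11 at 1.5-fold. It was 2 with the median of expressed genes subtracted (Rab24 higher and Rab8b lower), 2 with a minimum mean of 1 and 4 with copies added. Under the first 5 of these the share of all genes past 2-fold, 7.65% on the deposited scale, was 17.1%, 21.1%, 1.4%, 7.19% and 7.04%. That share was 7.58% with the median of expressed genes subtracted and 8.74% among genes with a mean of at least 1. It was not computed with copies added. For the 116 partner genes the count of 3 was 7 with a pseudocount of 0.01, 9 with none, 0 with a pseudocount of 1 or a minimum mean of 1, 1 with the median of expressed genes subtracted (Tbc1d17, higher), 1 with the GC bin median subtracted (Mon1a, lower, an expressed gene), and 2 with the same sum. The members' median log2 difference of 0.11 was 0.26 with a pseudocount of 0.01 and 0.31 with none. It turned to -0.05 with the median of expressed genes subtracted, and to -0.05 with the GC bin median subtracted, where all genes had -0.12 and -0.09. Among the 24 members with a mean of at least 1 in either genotype or past 2-fold, Rab11a, Rab22a, Rab2a and Rab4b changed sign under either other scaling. Rab22a and Rab4b also did after subtraction of the GC bin median. Some lower members changed sign as well. With the median of expressed genes subtracted, Rab15 went from 0.09 to -0.07 and Rab31 from 0.13 to -0.03. Rab30, Rab37, Rab3c, Rab40b, Rab44, Rab6b and Rab7b turned negative there too. With the GC bin median subtracted, Rab20 went from 0.23 to -0.11. Rab15, Rab31, Rab37, Rab40b, Rab43, Rab44, Rab6b and Rab7b then also turned negative. The cause of these changes was not tested. The setting without a pseudocount, the GC bin medians and the added copies were chosen after the data were seen.

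No paired analysis was possible because only 1 mean per genotype was used, and leaving out a library was not run for the same reason. No difference here has a replicate error beside it. The spread among the 3 and 4 libraries of 5 oocytes each is unknown.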

Other observations

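RAB-named genes outside the protein-coding family were few. Rab10os, antisense to Rab10, was at 0.122 in Mfn1-/- and 0.0623 in WT oocytes, and Rab11fip4os1 at 0.21 and 0.16. Rab26os, antisense to Rab26 (chr17:24528248-24528744), was at 0.199 in Mfn1-/- oocytes and listed at 0.01 in WT, where Rab26 is also listed at that value. Rab10os shares 4.07% of the exon bases of Rab10, where reads could not be told apart here. No exon bases shared by Rab26os and Rab26 were found. Among neighbours that share exon bases with a member, E230013L22Rik, which overlaps 25.6% of the exon bases of Rab20, was at 0.165 in Mfn1-/- oocytes and listed at 0.01 in WT, and Tox4, which overlaps 4.68% of those of Rab2b, was at 1.03 and 0.694.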
